A study of Mus musculus with 3 samples.

Results

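Genes of ribosome assembly, RNA helicases and WD-repeat proteins were compared between mouse liver and Universal Mouse Reference RNA (UMRR), a purchased mixture of cell line RNAs. Members were all probes whose single gene symbol in the platform annotation began with Ddx, Dhx, Nop, Utp, Rrp, Exosc, Nol, Noc, Imp, Nhp2, Gar1, Npm or Wdr (Nop, Utp, Nol, Noc and Imp only with a numeral), or was Bop1, Pes1, Ncl, Fbl or Dkc1. This gave 151 of the 12336 probes with 1 symbol and 101 of 7984 genes. Each of 3 arrays carried cRNA of liver in Cy5 and of UMRR in Cy3, both made by 1 round of amplification from bought total RNA. The labels give no strain, sex or age, and the 3 arrays repeat 1 pair of products in 1 dye orientation, so p-values measure only array-to-array spread (possibly technical), and every ratio contains any dye bias.

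Ribosomes are built in the nucleolus. There, RNA polymerase I transcribes the precursor of ribosomal RNA, and small nucleolar ribonucleoproteins (snoRNPs) modify its nucleotides. The small subunit processome and the large subunit assembly factors fold and cut the precursor. RNA helicases of the DEAD-box and DEAH-box families drive many of these steps and also act in splicing, export, translation and decay of mRNA. The RNA exosome trims the ends of ribosomal RNA and degrades by-products. WD-repeat proteins share a propeller fold and not a task, so the Wdr symbols cover assembly factors beside genes of autophagy, cilia and chromatin. Growing and dividing cells raise their output of ribosomes.

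Values are the authors' log ratios, read as log2 of liver over UMRR. Neither base nor direction is stated in the deposited table. Positive values were read as higher in liver because the 4 measured hepatocyte genes of a list of secreted and metabolic proteins (Apoc3, Ambp, Rbp4 and Vtn) lay between 4.01 and 5.17. A listed value of exactly 0 counted as missing. Complete data, with a ratio on all 3 arrays, existed for 67 of the 101 members (66.3%) and for 5520 of all 7984 genes (69.1%). Array 1 stood apart: over the 67 members the SD of the difference was 0.37 against array 2 and 0.34 against array 3, but 0.20 between arrays 2 and 3. Over all genes these SDs were 0.43, 0.38 and 0.21. Among cell markers, 9 of 10 measured cell cycle genes were lower in liver (median -2.34, range -4.15 to -0.0046), and none was higher. Pancreatic acinar markers were higher for 13 of 14 measured (range of all 14, 0.22 to 5.55) and erythroid markers for 5 of 7 (range of all 7, 0.22 to 4.94; 7 of 7 without array 1). The part of these markers in the results below was not tested.

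Ribosome biogenesis genes were mostly lower in liver, while WD-repeat genes of other tasks went both ways. In the limma fit over all genes, at a Benjamini-Hochberg adjusted p under 0.05, 30 of 67 members (44.8%) were lower in liver, against 33.9% of all 5520 genes. A further 12 (17.9%) were higher, against 30.1% of all genes, and 25 did not pass. These counts take in Wdr83 and Ddx3x, whose probes went both ways; with both left out, 28 of 65 were lower (43.1%) and 12 higher (18.5%). The median log2 ratio was -0.25 for the members and -0.028 for all genes. At least 2-fold lower on every array were 6 members, against 9.53% of all genes, and at least 2-fold higher was 1, against 9.46%. The count of members at least 2-fold lower was thus near the share of all genes. The 5th and 95th percentiles were -1.49 and 0.93 for the members and -1.62 and 1.85 for all genes, so the spread on the liver side was narrower among the members. In bulk RNA, fewer cells that express a gene and less RNA per cell cannot be told apart.

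The members in ribosome biogenesis roles, the exosome included, held 19 lower (57.6%) and 4 higher genes (12.1%) among 33 measured, with a median of -0.41. Of all genes 33.9% were lower and 30.1% higher. At least 2-fold lower on every array were 4 of these 33 members, against 9.53% of all genes. The other 34 measured members held 11 lower (32.4%) and 8 higher (23.5%), so their lower share was near that of all genes, with a median of -0.038; without Wdr83 and Ddx3x they held 9 lower and 8 higher of 32. Without array 1, when 37.7% of all genes were lower and 34.9% higher, the counts were 21 and 5 for the biogenesis roles and 12 and 11 for the others. Without array 2, with 28.1% and 24.7% of all genes, they were 18 and 3 against 6 and 9, and without array 3, with 27.1% and 22.8%, they were 17 and 2 against 6 and 7. The others held 18 genes below 0 and 16 above it with 3 arrays and 17 or 18 below it in these fits. The difference between these groups was not tested.

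**Figure D1:**
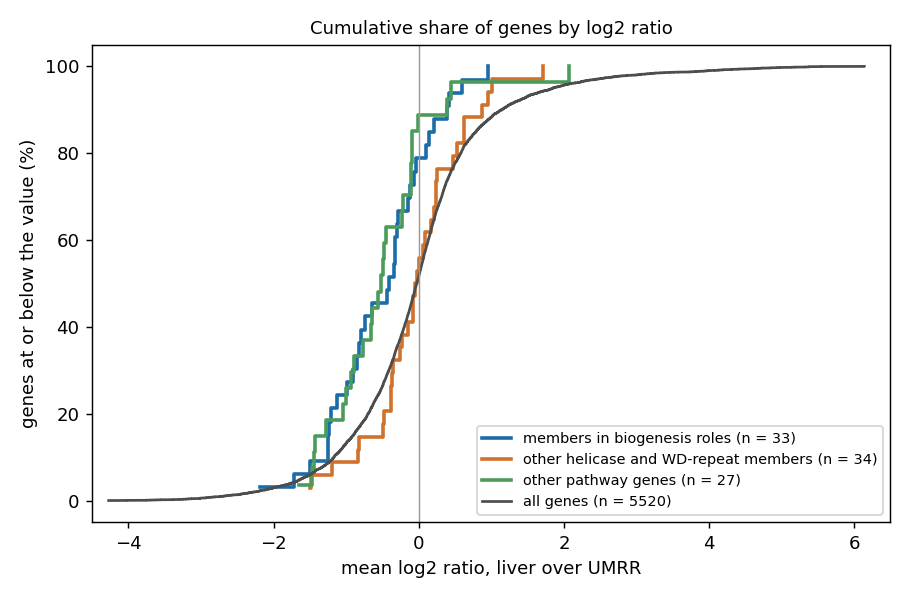
Cumulative share of genes (vertical axis, percent) by mean log2 ratio of liver over UMRR (horizontal axis) for the 33 members in biogenesis roles, the 34 other members, 27 further genes of the pathway and all 5520 genes. In the middle of the range the biogenesis roles and the further pathway genes run to the left of all genes, with medians of -0.41 and -0.53 against -0.028. At the low end all genes reach further, to -4.27, against -2.19 and -1.65. The other members follow all genes at the median (-0.038).

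Ncl encodes nucleolin, an abundant nucleolar RNA-binding protein that takes part in transcription and early processing of ribosomal RNA. Its log2 ratios were -2.19, -1.29 and -1.68 on arrays 1, 2 and 3. Every array put it well below 0, with array 1 the lowest. The mean of -1.72 ± 0.45 (SD, n = 3 arrays) is 3.29-fold lower in liver, with an adjusted p of 0.000260; a fit with unmoderated variance gave 0.0548. Npm1, nucleophosmin, had a ratio on array 2 alone, at -1.82.

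Among genes of the box C/D snoRNPs, which methylate ribosomal RNA, Nop56 was lower. Nop56 is a core protein of these particles and stood at -1.58, -1.57 and -1.37. The arrays lay close together, and the mean of -1.50 ± 0.12 (SD, n = 3) is 2.84-fold lower in liver (limma adjusted p = 4.14e-05). These values come from 1 probe. A further Nop56 probe was weaker, with -0.51 and -0.81 on arrays 1 and 2 and no ratio on array 3. With probes on at least 2 arrays let in, the mean of Nop56 was -1.20. Fbl, fibrillarin, the methyltransferase of the same particle, had ratios on arrays 1 and 2 only, at -0.81 and -0.88, and was not tested.

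The box H/ACA snoRNPs, which turn uridine into pseudouridine, were divided. Gar1 had -1.20, -1.17 and -1.34, a mean of -1.24 ± 0.088 (SD, n = 3) and an adjusted p of 7.90e-05 in the limma fit. Nhp2, a scaffold protein of the particle, was lower too, at -0.72, -0.59 and -0.62 (mean -0.64 ± 0.070, adjusted p = 0.00122), and its 3 probes lay between -0.73 and -0.58. Dkc1, dyskerin, the catalytic subunit, stood on the other side of 0 on each array, at 0.23, 0.22 and 0.20. Its mean of 0.22 ± 0.016 missed the threshold on 3 arrays (adjusted p = 0.0757) and passed without array 1 (0.0475) and without moderation of the variance (0.0171). In the limma fits without array 2 (adjusted p = 0.267) and without array 3 (0.319), Dkc1 missed the threshold again. Nop10 had 0.67 and 0.68 on arrays 2 and 3 and no ratio on array 1. Members of 1 particle thus lay on both sides of a ratio of 1, with no array on which Gar1 or Nhp2 was above 0 or Dkc1 below it.

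The promoter of Gar1 is shown because, among the 10 lowest members, it is one that holds a searched motif close to the start site. Windows run from 250 bases before to 50 after the start in RefSeq (GRCm38.p6), and capitals mark a match on either strand to the E-box CACGTG, the ETS core CCGGAAG or the TATA box TATAAA. The windows of Exosc8, Ncl, Nop56, Wdr54 and Wdr12, also among the 10 lowest members, hold none of these motifs.
Gar1, chr3:129831347-129831646, minus strand: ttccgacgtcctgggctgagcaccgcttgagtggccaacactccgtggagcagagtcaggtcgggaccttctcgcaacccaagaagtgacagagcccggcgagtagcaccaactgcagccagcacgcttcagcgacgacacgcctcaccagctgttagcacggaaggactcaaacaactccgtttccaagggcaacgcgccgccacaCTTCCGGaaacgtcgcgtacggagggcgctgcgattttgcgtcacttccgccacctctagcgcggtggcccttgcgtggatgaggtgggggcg

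Genes of the small subunit processome were mostly lower in liver. Of 10 measured genes, 8 were lower (80%, against 33.9% of all genes), 0 were higher (against 30.1%) and 2 missed the threshold; the median was -0.81. Without array 2 the lower genes were 6 (28.1% of all genes were lower in that fit), without array 3 they were 7 (27.1%) and without array 1 they were 9 (37.7%). Nol11, a nucleolar factor that acts in early cleavage of the precursor, had -1.57, -1.21 and -0.99. Ddx10, the homologue of a yeast helicase that frees a snoRNA from the precursor, had -0.92, -1.40 and -1.42. The spread of each gene had its own order over arrays, with array 1 the lowest for Nol11 and the highest for Ddx10. Their means were -1.26 ± 0.29 and -1.25 ± 0.29 (SD, n = 3), with limma adjusted p-values of 0.000306 and 0.000294.

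The promoter windows of these genes are printed as the lowest members of the processome with a window in the table. Nol11 holds CACGTG, an E-box, and a match to TATAAA on the other strand, and Ddx10 holds CCGGAAG, the core of a site for ETS factors.
Nol11, chr11:107189332-107189631, minus strand: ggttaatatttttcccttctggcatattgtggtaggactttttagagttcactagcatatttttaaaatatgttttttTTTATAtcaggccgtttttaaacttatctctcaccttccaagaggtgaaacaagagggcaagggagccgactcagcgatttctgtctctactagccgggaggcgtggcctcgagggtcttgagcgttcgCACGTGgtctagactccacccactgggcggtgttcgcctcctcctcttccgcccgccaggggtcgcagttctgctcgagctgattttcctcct
Ddx10, chr9:53248063-53248362, minus strand: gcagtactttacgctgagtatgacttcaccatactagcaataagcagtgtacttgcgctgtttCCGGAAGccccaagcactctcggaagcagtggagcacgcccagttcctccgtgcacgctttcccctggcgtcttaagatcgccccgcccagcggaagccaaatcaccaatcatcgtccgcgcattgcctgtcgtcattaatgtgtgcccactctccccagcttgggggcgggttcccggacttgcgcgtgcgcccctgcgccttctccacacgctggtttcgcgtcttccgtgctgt

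The next processome genes lay closer to a ratio of 1. Utp23 stood at -1.13 ± 0.24 (SD, n = 3), Utp11 at -0.85 ± 0.13, Utp20 at -0.82 ± 0.074 and Wdr36 at -0.79 ± 0.040. Each of these 4 was below 0 on every array, and each passed without any one array. Both measured probes of Utp11 were lower, at -0.59 and -1.11. The helicase genes Ddx47 (-0.41 ± 0.25) and Ddx52 (-0.29 ± 0.039) passed with 3 arrays. With array 2 left out, neither Ddx47 (adjusted p = 0.0993) nor Ddx52 (0.179) passed, and with array 3 left out Ddx52 missed again (0.187). Imp4, a protein of the U3 snoRNP, was the highest of the group, at 0.074, 0.20 and 0.012, and did not pass (mean 0.096 ± 0.096). Wdr43 had 0.22, -0.16 and -0.28, with array 1 against the others, and did not pass (mean -0.072 ± 0.26).

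**Figure D2:**
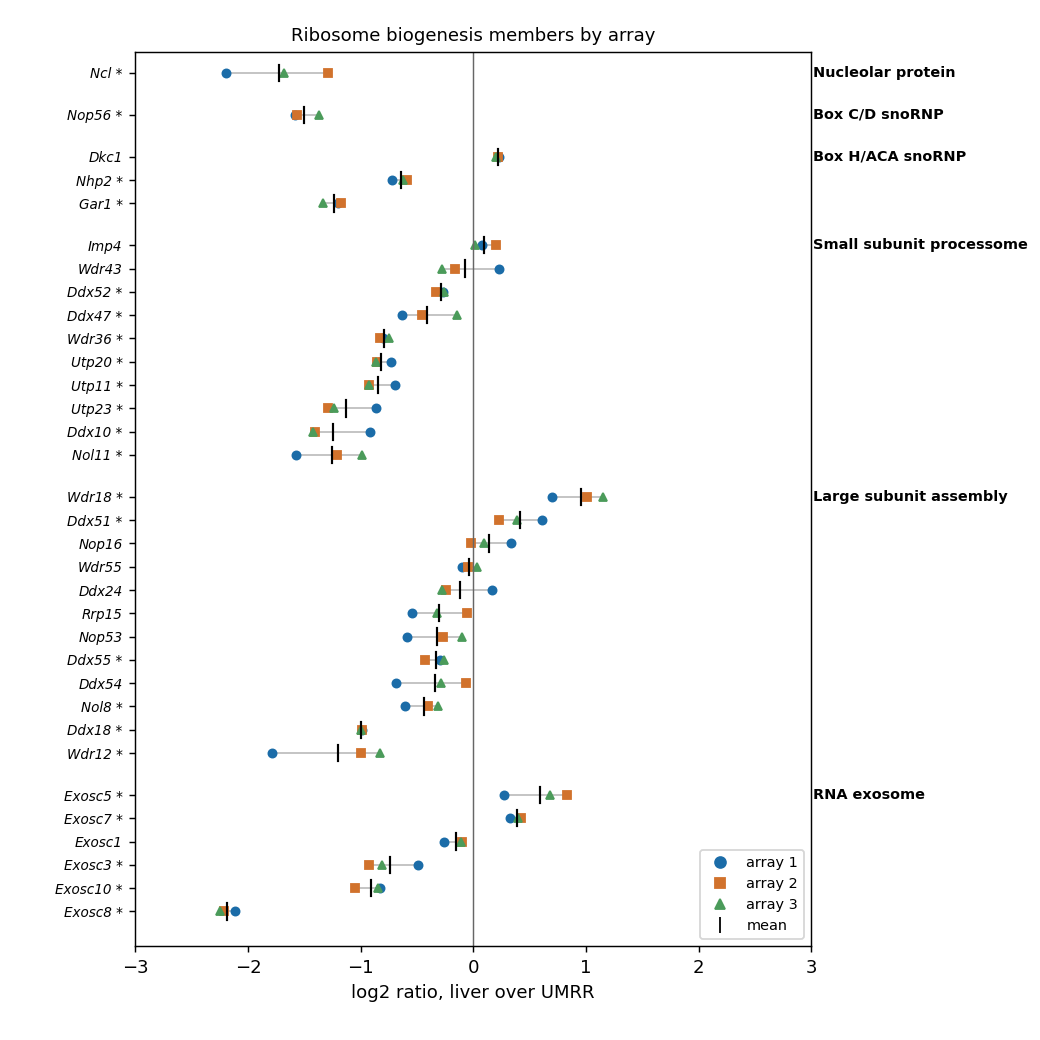
Log2 ratio of liver over UMRR (horizontal axis) for each of the 33 measured members in biogenesis roles, with 1 symbol per array, a bar at the mean and a line from the lowest to the highest array. A star after a gene marks an adjusted p under 0.05; Exosc8 (-2.19) is lowest and Wdr18 (0.95) highest, and the 10 genes of the small subunit processome run from -1.26 to 0.096.

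Large subunit assembly genes were called in both directions, with 9 means below 0 and 3 above it. Of 12 measured, 4 were lower (33.3%, near the 33.9% of all genes) and 2 were higher (16.7%, against 30.1%). The other 6 missed the threshold, and the median was -0.31. Without array 1 they held 5 lower and 2 higher (37.7% and 34.9% of all genes). The counts were the same without array 2 (28.1% and 24.7%), and without array 3 they were 3 and 1 (27.1% and 22.8%). Wdr12, a partner of Pes1 and Bop1 in a complex that processes the large subunit RNA, had -1.79, -1.00 and -0.82. Array 1 was far below the others, and the mean of -1.20 ± 0.51 (SD, n = 3) had a limma adjusted p of 0.00196, but 0.0994 without moderation of the variance. Its mean without array 1 was -0.91. Bop1 had no ratio on any array, and Pes1 was not analysed here.

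Ddx18, a helicase of early large subunit particles, had the closest arrays of all members called, at -0.99, -0.99 and -1.00 (SD 0.0041). Its limma adjusted p was 0.000159. Nol8 (-0.44 ± 0.15) and Ddx55 (-0.33 ± 0.088), a helicase, were lower as well. Ddx55 missed the threshold when array 2 (adjusted p = 0.159) or array 3 (0.118) was left out. A further Ddx55 probe had -0.015 and 0.17 on arrays 1 and 2 and no ratio on array 3. With probes on at least 2 arrays let in, the mean of Ddx55 was -0.18 and did not pass (limma adjusted p = 0.138). On the other side, Wdr18, which joins Pelp1 and Tex10 in late assembly, had 0.70, 1.01 and 1.16 and lay above 0 on every array (mean 0.95 ± 0.23, adjusted p = 0.000631). The helicase Ddx51 stood at 0.41 ± 0.19 and lost its call without array 3 (adjusted p = 0.0881). The 6 genes that did not pass were Ddx54 (-0.34 ± 0.31), Nop53 (-0.32 ± 0.25), Rrp15 (-0.31 ± 0.25), Ddx24 (-0.12 ± 0.25), Wdr55 (-0.037 ± 0.071) and Nop16 (0.14 ± 0.18).

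The RNA exosome held the lowest member of all. Exosc8, a subunit of the ring that forms the core of the complex, had -2.11, -2.21 and -2.24 on its single probe. The arrays lay within 0.13 of each other, and the mean of -2.19 ± 0.070 (SD, n = 3) is 4.56-fold lower in liver, with a limma adjusted p of 8.53e-06. Counted from the lowest, it held place 124 of 5520 genes. Exosc10, the nuclear exonuclease (-0.91 ± 0.12), and Exosc3, a cap subunit that binds RNA (-0.74 ± 0.23), were lower too. Against them, the ring subunit Exosc5 had 0.27, 0.83 and 0.68 and was higher, at 0.60 ± 0.29, on probes at 0.57 and 0.63. Exosc7, another ring subunit, stood at 0.38 ± 0.048 and missed the threshold when array 2 (adjusted p = 0.0772) or array 3 (0.105) was left out. Subunits of the same complex thus differed in sign on every array, with 3 of 6 lower (50%, against 33.9% of all genes), 2 higher (33.3%, near the 30.1% of all genes) and 1 (Exosc1) not past the test. Exosc9 had -0.39 and -0.38 on arrays 1 and 2, and Exosc6 had -0.035 and -0.64 on the same arrays, untested.

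Helicases of splicing and mRNA came next. Ddx39a, a helicase of mRNA splicing and export and a close paralogue of Ddx39b, had -1.51, -1.38 and -1.54. All arrays lay within 0.16, the mean was -1.48 ± 0.082 (SD, n = 3; limma adjusted p = 3.67e-05), and its probes stood at -1.55 and -1.41. Ddx39b itself had a ratio of -1.00 on array 2 alone; because the sequences of the paralogues are alike, their probes may share signal. Of 6 measured genes in this group 3 were lower (50%, against 33.9% of all genes), 0 higher (against 30.1%) and 3 not past the test. Ddx39a was the 1 gene still called without array 2 or without array 3, when 28.1% and 27.1% of all genes were lower. Ddx17 (-0.48 ± 0.36) and the spliceosome helicase Dhx16 (-0.25 ± 0.039) lost their calls there, with adjusted p-values of 0.0569 and 0.188 without array 2 and 0.220 and 0.238 without array 3. The coactivator Ddx5 (-0.15 ± 0.11) and Ddx41 (0.0050 ± 0.20) did not pass. Ddx23, of the U5 snRNP, was the highest, at -0.035, 0.29 and 0.022, and did not pass either (mean 0.093 ± 0.17).

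Of the 7 other helicases measured, 4 were lower (57.1%, against 33.9% of all genes), 1 was higher (14.3%, against 30.1%) and 2 missed the threshold; without Ddx3x, whose direction is uncertain, 3 of 6 were lower. Dhx9, also called RNA helicase A, had -0.99, -1.36 and -1.22 on its single probe. All arrays were near or below -1, and the mean of -1.19 ± 0.19 (SD, n = 3) had a limma adjusted p of 0.000170. Dhx34, which acts in nonsense-mediated mRNA decay, stood on the other side on every array, at 0.73, 1.06 and 1.05 (mean 0.95 ± 0.19, adjusted p = 0.000462). Dhx30, of mitochondrial RNA granules, was lower at -0.83 ± 0.32, and Ddx59 at -0.39 ± 0.20. Ddx59 missed the threshold when array 2 (adjusted p = 0.169) or array 3 (0.0786) was left out. Ddx19b (-0.075 ± 0.17), of mRNA export, and Dhx33 (-0.055 ± 0.13) did not pass. Dhx36, which unwinds G-quadruplexes, had -0.83 and -0.87 on arrays 2 and 3 alone.

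Dhx9 is the lowest of these helicases, and its promoter window is printed because it holds CCGGAAG.
Dhx9, chr1:153487611-153487910, minus strand: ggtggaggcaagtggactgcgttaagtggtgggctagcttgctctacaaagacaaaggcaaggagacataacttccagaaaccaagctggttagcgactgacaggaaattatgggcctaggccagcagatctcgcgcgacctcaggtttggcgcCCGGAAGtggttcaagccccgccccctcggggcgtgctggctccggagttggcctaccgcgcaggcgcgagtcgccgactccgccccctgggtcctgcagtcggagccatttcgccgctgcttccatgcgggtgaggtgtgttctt

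Ddx3x, a helicase of translation initiation, was lower on 1 probe at -1.26, -0.50 and -0.76 (mean -0.84 ± 0.39, SD, n = 3; limma adjusted p = 0.00379). A further probe made from the same sequence record had 1.14 on array 1, no ratio on array 2 and 0.25 on array 3. The probes of 1 record thus stood on opposite sides of 0. With probes on at least 2 arrays let in, the mean was -0.27 with an adjusted p of 0.0928, so the direction of Ddx3x is uncertain.

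WD-repeat genes outside ribosome assembly, with Nol4 and Wdr83os, made up 21 measured members, of which 4 were lower (19.0%, against 33.9% of all genes), 7 were higher (33.3%, near the 30.1% of all genes) and 10 missed the threshold; their median was 0.21. Without Wdr83, 3 of 20 were lower. Without array 1 the 21 held 5 lower and 10 higher (37.7% and 34.9% of all genes), without array 2 they held 2 and 8 (28.1% and 24.7%), and without array 3 they held 2 and 6 (27.1% and 22.8%). Wdr45, which binds phosphoinositides and acts in autophagy, was the highest member of all. Its ratios were 1.73, 1.60 and 1.81, the arrays lay close together, and the mean of 1.71 ± 0.11 (SD, n = 3) is 3.27-fold higher in liver (limma adjusted p = 2.37e-05). Wdr6, which partners a tRNA methyltransferase in human cells, had 0.84, 1.18 and 0.99 (mean 1.00 ± 0.17, adjusted p = 0.000312). Wdr20, a cofactor of deubiquitinating enzymes, had 0.76, 0.87 and 1.00 (mean 0.88 ± 0.12). Both were above 0 on every array, and array 1 was the lowest for each.

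Of the remaining genes called higher, Wdr86 had 0.73, 0.54 and 0.61 (mean 0.63 ± 0.099). Wdr61, shared by the SKI and PAF1 complexes, had 0.73, 0.52 and 0.31 (mean 0.52 ± 0.21). Its 3 probes differed, with 0.75 and 0.73 called higher and 0.084 not past the test. Wdr66, a ciliary gene, had 0.43, 0.43 and 0.54 (mean 0.47 ± 0.064) and lost its call without array 3 (adjusted p = 0.0681). Wdr54 went the other way, at -1.75, -1.55 and -1.19, and was the lowest of the group (mean -1.50 ± 0.29, adjusted p = 0.000138). Wdr5b (-0.49 ± 0.014), a paralogue of the histone methylation cofactor Wdr5, was lower with nearly equal arrays. Wdr26 (-0.36 ± 0.21), of an E3 ubiquitin ligase, was lower, but missed the threshold when array 2 (adjusted p = 0.0597) or array 3 (0.287) was left out. Wdr5 itself had -1.10, 0.068 and -0.13; array 1 stood far from the others, and the mean of -0.39 ± 0.62 did not pass. The other 9 genes that did not pass had means between -0.24 (Wdr37) and 0.25 (Wdr73).

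Wdr83 and Wdr83os are neighbours on opposite strands, and their promoter windows share 284 bases. Wdr83os had 0.79, 0.56 and 0.51 and was higher in liver (mean 0.62 ± 0.15, SD, n = 3; limma adjusted p = 0.00229). For Wdr83 1 probe had -1.07, -1.20 and -1.01 and was lower, while its other probe on all arrays had 0.23, 0.32 and 0.52 and was higher. The gene mean of -0.37 ± 0.11, past the test with 3 arrays but not without array 2 (adjusted p = 0.107) or array 3 (0.0691), joins these opposite probes and gives no direction for Wdr83.
Wdr83os, chr8:85080713-85081012, plus strand: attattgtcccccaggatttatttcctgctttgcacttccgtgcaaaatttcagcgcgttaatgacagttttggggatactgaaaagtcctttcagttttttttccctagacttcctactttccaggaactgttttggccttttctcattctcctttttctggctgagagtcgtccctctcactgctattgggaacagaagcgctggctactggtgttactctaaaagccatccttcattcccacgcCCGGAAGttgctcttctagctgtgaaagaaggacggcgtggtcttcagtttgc

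**Figure D3:**
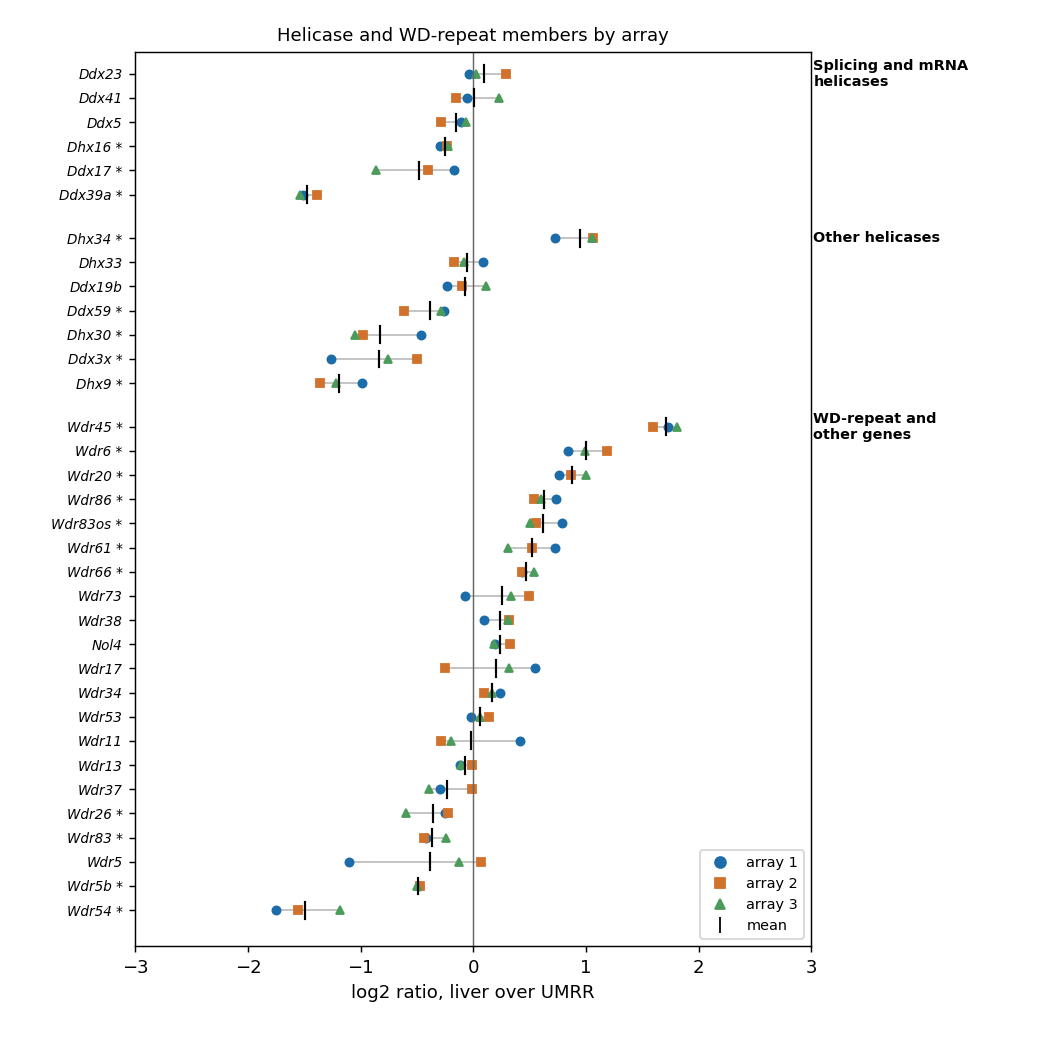
Log2 ratio of liver over UMRR (horizontal axis) for the 34 measured helicase, WD-repeat and other members outside biogenesis roles, with 1 symbol per array, a bar at the mean and a line from the lowest to the highest array. A star after a gene marks an adjusted p under 0.05; Wdr45 (1.71) is highest and Wdr54 (-1.50) lowest, and Wdr5 shows array 1 at -1.10 with the other arrays at 0.068 and -0.13.

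Probes of 1 gene did not always go the same way. Of 67 measured members, 14 had several probes with a ratio on all arrays, and their highest and lowest probes lay a median of 0.45 apart, against 0.34 over 1328 such genes of the whole array. In the limma fit on 9910 probes, in which 33.5% were lower and 31.4% higher, 3 of the 14 members had probes called in both directions (21.4%), against 84 of the 1328 genes (6.33%). These were Wdr83, Rrp15 and Exosc1. Rrp15, an early factor of the large subunit, had 4 probes below 0 (means between -0.71 and -0.40, with 3 called lower) and a further probe at 0.82 called higher. With the median probe in place of the mean, Rrp15 was lower (-0.55, adjusted p = 0.00728). Exosc1, a cap subunit of the exosome, had a probe at -0.88 ± 0.20 and a probe at 0.57 ± 0.035 (SD, n = 3). Its gene mean of -0.15 stands for neither. A further Exosc1 probe had -0.65 and -1.06 on arrays 1 and 2 and no ratio on array 3. With probes on at least 2 arrays let in, the mean of Exosc1 was -0.30 and did not pass (limma adjusted p = 0.0518).

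**Figure D4:**
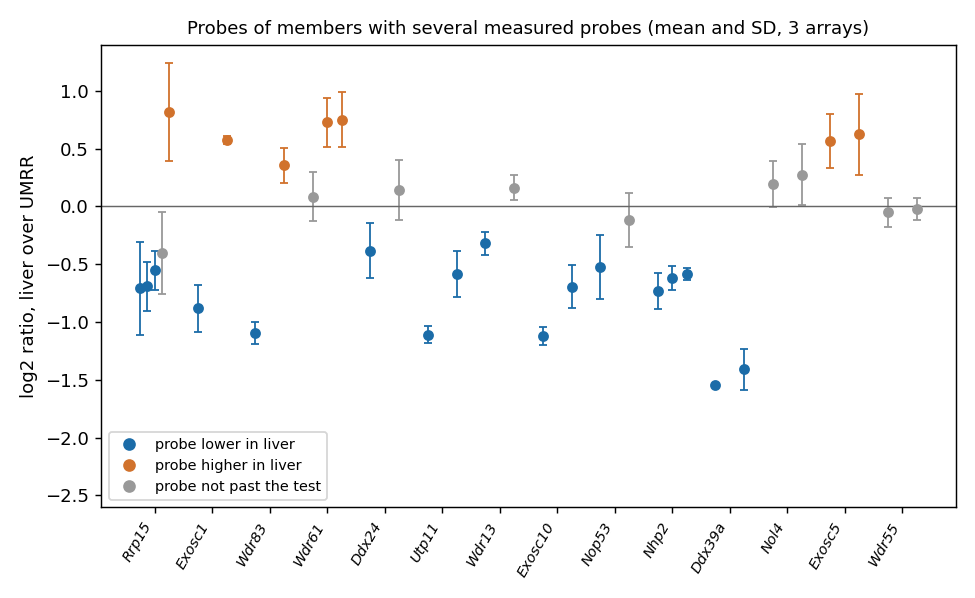
Mean log2 ratio of liver over UMRR for each probe (points, with bars of SD over 3 arrays) of the 14 members with several measured probes, ordered from the widest difference between probes on the left. Blue points passed as lower, orange as higher and grey did not pass; Rrp15, Exosc1 and Wdr83 each hold points of both colours.

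The 34 members without a ratio on all arrays were left out of the fit. Of these, 12 had no ratio on any array, 11 had at most 1 array on any probe and 11 had 2. The 12 were Bop1, Ddx46, Dhx40, Nop14, Rrp1b, Rrp9, Utp18, Utp3, Wdr19, Wdr27, Wdr45b and Wdr46, which include 5 of the 16 processome genes on the array. Besides those given above, Ddx21, a nucleolar helicase of ribosomal RNA transcription, had -1.02 on array 2, and Wdr76 had -0.61 and -0.69 on arrays 1 and 2. Ddx4, a germ cell helicase, had 0.31 and 0.19 on the same arrays. Ddx56 and Dhx38 lay between -0.12 and 0.12. The other 10 genes (Nol4l, Nop9 and 8 Wdr genes) had values between -0.44 and 0.72, mostly on 1 array, and none was tested.

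Genes of the pathway outside the symbol rule were taken from a list of RNA polymerase I subunits, GTPases and other assembly factors. Of 39 on the array 27 had ratios on all arrays, and 17 of these were lower in liver (against 33.9% of all genes), 3 were higher (30.1%) and 7 missed the threshold; their median was -0.53. The lowest were Lyar, a nucleolar protein (-1.65 ± 0.074, SD, n = 3), Nolc1, a chaperone of snoRNPs (-1.47 ± 0.080), Rsl1d1 (-1.44 ± 0.15) and Rpf2, which helps to bring in the 5S particle (-1.43 ± 0.24). At the top stood Rcl1, known in yeast for cleavage of the precursor, with 1.94, 2.09 and 2.18. All arrays put Rcl1 far above 0, on 2 probes, and its mean of 2.07 ± 0.12 is 4.19-fold higher in liver (limma adjusted p = 1.26e-05). Riok3, a kinase (0.44 ± 0.29), and Sbds, which acts in the release of Eif6 (0.39 ± 0.23), followed, and neither passed without moderation of the variance (adjusted p = 0.177 and 0.152). Eif6 itself had -0.53, 0.29 and 0.22 and did not pass (-0.0062 ± 0.46). Array 1 opposed the others, and without it Eif6 was called higher (0.26, adjusted p = 0.0226). Without array 3 the list held 11 lower and 1 higher gene of 27 (27.1% and 22.8% of all genes). Without moderation of the variance it held 8 lower and 1 higher (19.1% and 18.7% of all genes).

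Promoter windows were found for 58 of the 67 measured members and gave 72 windows, since some genes have several starts. CCGGAAG or its complement was present in 31.9% of these windows, in 15.6% of the 5622 windows of all tested genes and in 8.86% of all 32851 windows in the table. Windows of 1 gene can overlap, so genes were counted too, by a match in any window. Of all measured members with a window 21 of 58 genes held it (36.2%). Of members lower in liver 14 of 26 genes held it (53.8%), against 21.0% of all tested genes lower in liver. Of members higher in liver 2 of 11 held it (Dhx34 and Wdr83os), against 17.5% of all tested genes higher. The windows of Wdr83 and Wdr83os share most bases, so 1 match counts on both sides; without this pair the counts were 13 of 25 and 1 of 10. CACGTG was in 13.9% of windows of measured members, in 9.62% of those of all tested genes and in 7.15% of the whole table. TATAAA was in 6.94%, 8.59% and 13.6% of the same sets. By gene, CACGTG was in 3 of 26 members lower in liver and in 2 of 11 higher. Of all tested genes, 12.2% of those lower and 10.6% of those higher held it. None of these 3 motifs contains another. A further, longer motif was searched at first and is left out of these counts. A match is a description of these letters and not a site. Windows may differ in base composition between gene sets, which was not tested.

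Calls were checked without each array. Without array 1, 0 of the 42 calls among members were lost and 7 were gained (Ddx24, Wdr43, Wdr11, Dkc1, Nol4, Wdr38 and Wdr73). Without array 2, 9 were lost and 3 gained (Ddx54, Rrp15 and Wdr17), and without array 3, 10 were lost and 0 gained. No called member changed sign. Members lower in liver numbered 33 without array 1 (37.7% of all genes were lower there), 24 without array 2 (28.1%) and 23 without array 3 (27.1%), and members higher 16 (34.9%), 12 (24.7%) and 9 (22.8%). In all 3 such fits 22 lower and 9 higher members remained called, among them each of the 10 lowest members and 9 of the 10 highest.

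Other settings gave the following counts beside the shares of all genes. Of the 67 members 42 were called in either direction, against 64% of all genes. At a threshold of 0.01, 21 were lower (26.2% of all genes) and 10 higher (23.4%). Against a 2-fold difference 5 were lower (7.07%) and 1 higher (7.72%). Without moderation of the variance 18 were lower (19.1%) and 9 higher (18.7%). That setting ended 16 of the 42 calls, among them, beside Ncl and Wdr12, those of Wdr18 (adjusted p = 0.0504), Exosc3 (0.0656), Nol8 (0.0748), Dhx30 (0.0872), Wdr61 (0.0906), Ddx3x (0.109) and Exosc5 (0.117). The other 7 were Ddx55, Wdr83, Ddx51, Ddx59, Wdr26, Ddx47 and Ddx17, each of which also missed the threshold without at least 1 array. With listed zeros kept as ratios of 1, 20 of 101 members were lower (15.4%) and 9 higher (14.6%), and with probes on at least 2 arrays let in, 31 of 78 were lower (31.9%) and 13 higher (27.8%). With the median probe of each gene, 30 were lower (33.9%) and 12 higher (30.3%). Read as natural logs, 16 were at least 2-fold lower on every array (15.4%) and 5 higher (13.5%).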

How the data were processed

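The deposited values, 16273 signed numbers for each of 3 arrays, were read as a log2 ratio of liver (Cy5) over UMRR (Cy3). How the authors scanned, corrected and normalized the arrays is not stated in the labels or the table; base 2 is an assumption, and natural logs would multiply each value by 1.44. The deposited median is 0 on each array with exact zeros included, and -0.019, -0.018 and 0.0045 over the 9910 probes measured on all arrays. Exact zeros (32.2%, 23.5% and 29.6% of values on arrays 1, 2 and 3) counted as missing. No intensities were used here, so dim probes could not be filtered, and the number of arrays limits the precision.

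Probe names came from the platform annotation (12336 probes with 1 symbol, 61 with several, 3876 with none); 101 of 101 member symbols matched the reference gene table (GRCm38.p6). Probes of a gene were averaged on each array, and limma 3.58.1 (R 4.3.3; lmFit, eBayes) tested the mean of 5520 genes against 0, two-sided, with Benjamini-Hochberg adjustment over all of them. The fit was tested on simulated data. Promoter sequences are from RefSeq.

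The members, lists and tests were chosen with earlier results of these data known. Values on every array were given for the 10 lowest and 10 highest called members with the same sign throughout and for the extremes of each role; of the further pathway genes the 4 lowest and 4 highest were named. Ddx18, Dkc1, Nhp2, Ddx3x, Wdr5, Wdr43 and the members with opposite probes got fuller values after these were seen. Alternatives were other treatments of zeros, centring, scaling, probes, variance and thresholds, and leaving out each array.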

Additional observations from a re-analysis of the deposited data

How the results depend on the processing

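No paired analysis was possible because the arrays form 1 group. Without replicate 1, 2 or 3 in turn, the median of the members ranged from -0.26 to -0.20, the members lower in liver from 23 to 33, those higher from 9 to 16, those at least 2-fold higher on every array from 1 to 3, and the further pathway genes from 11 to 18 lower and from 1 to 4 higher. With exact zeros kept as ratios of 1, the median of 101 members was -0.072, 20 were lower (15.4% of all genes) and 9 higher (14.6%), and the further pathway genes held 11 lower and 1 higher. Without moderation of the variance 18 members were lower (19.1% of all genes) and 9 higher (18.7%), with 8 and 1 of the further pathway genes. At a threshold of 0.01, 13 further pathway genes were lower and 1 higher, against 26.2% and 23.4% of all genes. Against a 2-fold difference 5 members were lower and 1 higher, and 4 and 1 of the further pathway genes (7.07% and 7.72% of all genes). Read as natural logs, the median was -0.36, and 16 members were at least 2-fold lower (15.4% of all genes) and 5 higher (13.5%) on every array. Leaving Wdr83 and Ddx3x out of the members, chosen after seeing the data, gave 28 lower and 12 higher. Centring, scaling, the median probe, trend and robust settings and probes on at least 2 arrays kept every count within 1.5 times.

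No gene called with 3 arrays changed sign, while uncalled genes near 0 did. Eif6 (-0.0062) stood at 0.0046 after centring and 0.014 after centring and scaling, and it passed as higher without replicate 1 (adjusted p = 0.0226). Without 1 array at a time it ranged from -0.15 to 0.26, Ddx19b from -0.17 to 0.0037, Dhx33 from -0.12 to 0.0019, Wdr11 from -0.24 to 0.11, Ddx23 from -0.0068 to 0.16, Wdr43 from -0.22 to 0.030 and Ddx41 from -0.11 to 0.085. The causes were not tested. Signal over background was not used here, so its limits are unknown.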
